A study of Mus musculus with 22 samples.

Results

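Granule neurons of the dentate gyrus and granule neurons of the cerebellum were compared with layer V cortical neurons and inhibitory interneurons, to describe which ribosome-bound mRNAs set small granule neurons of both regions apart from the other neuron types. Estimated counts were summed per gene and scaled to the size of each library as CPM (with TMM normalization). A gene was taken as a member when the 6 granule libraries all lay above, or all lay below, the 6 libraries of the other types. The files held 55385 genes, of which 34424 had at least 1 count in the 12 libraries and 4892 were members, 2336 of them higher and 2556 lower in granule cells. Among the 18587 genes that passed a filter on low counts and were tested, 4750 were members, 2314 higher and 2436 lower. The other 22 higher and 120 lower members were too low to be tested and enter none of the values given for members tested.

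Both granule types are small, densely packed neurons that release glutamate. Dentate granule cells receive input from the entorhinal cortex and send mossy fibres to hippocampal pyramidal cells, while cerebellar granule cells receive mossy fibres and send parallel fibres to Purkinje cells. They descend from separate progenitors in forebrain and hindbrain. Layer V neurons are large pyramidal cells that project out of the cortex, and the interneurons release GABA within the hippocampus.

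All mice were 6 weeks old and carried 1 floxed copy of Rpl22 (B6N.129-Rpl22tm1.1Psam/J line), so that Cre added an HA tag to ribosomal protein L22, and tagged ribosomes with their polyA RNA were precipitated (RiboTag). Rpl22 Fl/+, Rbp4-Cre mice gave dentate granule cells from hippocampus and layer V neurons from cortex, which makes 1 Cre line common to a granule type and to a type it is compared with. Rpl22 Fl/+, Gabra6-Cre cerebellum gave cerebellar granule cells. Interneurons came from hippocampus of Rpl22 Fl/+, Dlx6a-Cre mice, each library pooled from 2 mice. Sexes were mixed in each type. A type is therefore defined by where its Cre driver had been active, and dentate libraries hold any other hippocampal cell that had expressed Rbp4-Cre.

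Each type had 3 libraries. Total estimated counts were 54630381, 38270477 and 52052330 in dentate granule cells, 66185898, 48481047 and 54194936 in cerebellar granule cells, 54633071, 65977155 and 53999691 in layer V neurons and 49592923, 59763961 and 45944013 in interneurons. All interneuron libraries were of batch 2 and the other 9 libraries of batch 1, so among the 12 the interneuron type and the batch cannot be told apart. For 3 replicates (dentate 3, cerebellar 3 and layer V 1) a batch 2 library also existed, and values within batch 2, and within batch 1 against layer V neurons alone, are given for the main counts and for some of the lists. Within batch 2 the dentate, cerebellar and layer V types have 1 library each, so tests there take their spread from the 3 interneuron libraries.

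The labels were checked against marker genes, with levels in TPM (scaled per transcript length). The 6 dentate markers, led by the synaptic ligand C1ql2, summed to 910.3, 917 and 834 TPM in dentate libraries and to at most 43.8 in any other neuron library. The 8 cerebellar markers, led by the GABA-A receptor subunit Gabra6, summed to 10125, 9999 and 9817 TPM in cerebellar libraries and to at most 72.0 elsewhere among the 12. Interneuron markers, led by somatostatin (Sst), summed to 11501, 11400.4 and 12566 TPM in interneurons. The same sum was 234, 306 and 336 TPM in dentate, 440, 423 and 385 in layer V and 18.7 to 19.6 in cerebellar libraries. Gad1, which makes GABA, was at 192 ± 9.79 CPM in dentate libraries (SD, n = 3). Layer V markers, led by Crym, summed to 657, 655 and 683 TPM in layer V neurons and to 509, 605 and 584.5 TPM in dentate granule cells, although 6 of the 8 genes were lower and 1 higher in dentate granule cells against layer V neurons (median log2 difference -1.07). Crym itself was at 173 ± 1.59 CPM in layer V neurons and at 189.8 ± 11.2 CPM in dentate libraries, whereas Fezf2, a factor of subcerebral projection neurons, was at 110.3 ± 1.05 CPM against 15.7 ± 2.52 CPM. Markers of hippocampal pyramidal neurons, led by Lypd1, summed to 400.1, 475 and 531 TPM in dentate libraries, 338, 305 and 328 in layer V, 129, 126 and 84.2 in interneurons and 17.5 to 19.1 in cerebellar libraries, and 6 of these 8 genes were lower by the contrast. In dentate granule cells 4 of them were higher and 2 lower against layer V neurons, and 6 higher and 1 lower against interneurons. In cerebellar granule cells 7 were lower in each comparison, and 1 was higher against layer V neurons. The part of these markers in the results was not tested.

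Markers of non-neuronal cells also differed between types. Oligodendrocyte markers, led by Mbp, summed to 3100, 3333 and 3119 TPM in interneuron libraries, against 297, 322 and 425 in dentate, 152, 133 and 125 in cerebellar and 245, 241 and 233 in layer V libraries. All 10 of these markers were lower in granule cells by the contrast, 2 of them as members, while within batch 1, against layer V neurons, 1 was higher and 5 lower, and their part in the genes lower in granule cells than in interneurons was not tested. Oligodendrocyte precursor markers, led by Olig1, stood at 84.4, 92.0 and 81.7 TPM in interneurons and at no more than 10.3 in the other 9 libraries, and all 5 were lower by the contrast (3 within batch 1). Choroid plexus markers, led by Ttr, reached 106, 186 and 245 TPM in dentate and 172, 285 and 179 in interneuron libraries, 35.9 to 39.0 in cerebellar libraries and 15.1, 1.46 and 1.39 in layer V neurons. Of these 5 genes 2 were higher and 1 lower by the contrast, but 2 were higher and 3 lower without dentate replicate 3, and 1 and 3 within batch 2. Astrocyte and Bergmann glia markers, led by Aldoc, summed to between 183 and 314 TPM in all 12 libraries, with 3 higher and 6 lower of 10 (4 and 3 within batch 1, 3 and 5 within batch 2). Microglia markers summed to between 9.41 and 40.6 TPM, and all 8 were lower, as were 4 of 7 endothelial and mural markers, led by Rgs5 (4.95 to 49.8 TPM), of which 3 were lower within batch 1 and 1 within batch 2. Of the microglia markers 2 were lower members. In dentate granule cells 1 microglia marker was higher and 2 lower against layer V neurons, and 1 was lower against interneurons. Endothelial and mural markers in dentate granule cells had 4 higher against layer V neurons and 3 higher and 1 lower against interneurons. In cerebellar granule cells all 8 microglia markers were lower in both comparisons. Of the endothelial and mural markers, 7 were lower there against layer V neurons and 6 against interneurons. Purkinje cell markers, led by Calb1, summed to 99.7, 96.2 and 93.4 TPM in cerebellar libraries, below dentate libraries (617, 709.7 and 645). Layer V libraries were at 195, 203 and 217 TPM and interneuron libraries at 797, 797 and 882 TPM. Of the 6 genes 2 were higher and 3 lower by the contrast, with a median log2 difference of -0.14 that became 0.24 on log2(TPM + 1). The defining Purkinje gene Pcp2 was at 3.02 ± 0.180 CPM in cerebellar libraries. Pan-neuronal markers, led by Snap25, were not level either: their sum was 3079, 3401 and 3676 TPM in dentate, 13842, 14013 and 13854 in cerebellar, 7439, 7286 and 7466 in layer V and 5897, 6439 and 6292 in interneuron libraries, with 1 of the 4 genes higher and 2 lower by the contrast.

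Granule neurons of both regions shared differences from the other neurons across a wide range of gene functions. Chromatin proteins were mostly higher, and neuropeptides, neurofilament and tubulin genes and respiratory chain genes mostly lower. Single genes such as Neurod1, Nfia, Adcy1 and Kcnd2 were higher, and Adra1b and Htr2a were lower. In the contrast of the mean of both granule types with the mean of both other types, tested by edgeR quasi-likelihood with Benjamini-Hochberg adjustment over all genes, 14642 of 18587 genes passed an adjusted p of 0.05 (78.8%), 6389 higher (34.4%) and 8253 lower (44.4%) in granule cells. The excess of lower calls was larger by edgeR without normalization factors, with 5533 higher and 9152 lower. It was absent by limma on log2(TPM + 1), which changed the test and the scale at once (7058 and 7032). A stricter reading asked for each granule type to differ from each other type in the same direction, with the largest of the 4 pairwise p-values adjusted: 3947 genes passed (21.2%), 1984 higher (10.7%) and 1963 lower (10.6%). Members, the genes on 1 side in all 12 libraries, made up 25.6% of the genes tested, 12.4% higher and 13.1% lower. Counts of members in a list are to be read against these shares. Since the rule and the contrast use the same values, all 4750 members passing the contrast is no finding, nor is it that 1961 higher and 1948 lower members passed the 4-way reading. Each library pools the RNA of many cells, so fewer cells with an mRNA and less of it per cell cannot be told apart.

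The lower members reached larger differences than the higher ones. The median log2 difference was 0.90 for higher and -1.36 for lower members, against -0.14 for all genes tested. For all genes called by the contrast it was 0.64 for higher and -1.03 for lower ones. At least a 2-fold difference was seen for 958 higher and 1461 lower members, at least 4-fold for 188 and 917, and at least 8-fold for 61 and 605. A wide gap between the groups was rarer: among protein-coding members with at least 10 CPM in each library of the high side (1867 higher, 1349 lower), the lowest high library and the highest low library were 2-fold or more apart for 107 higher and 147 lower members, 4-fold for 20 and 20, and 8-fold for 5 and 5. At the edge of the rule, Map7d1 was just inside as higher, with 393.6 CPM in the lowest granule library and 393.5 in the highest other library. Med4 was just outside, at 26.5992 against 26.6002 CPM. On the lower side Gstz1 was just inside, with 19.8695 CPM in the highest granule library and 19.8711 in the lowest other library, and Qpctl was just outside, at 17.8766 against 17.8726 CPM.

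**Figure D1:**
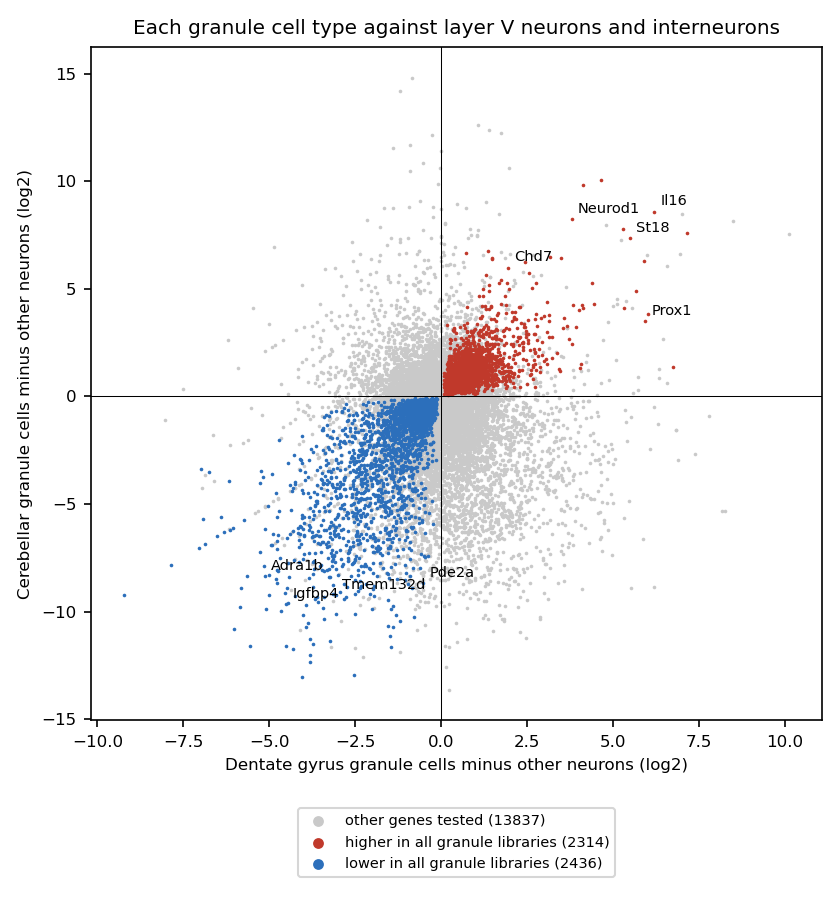
Each point is a gene tested, with the log2 difference of dentate granule cells (x axis) and of cerebellar granule cells (y axis) from the mean of layer V neurons and interneurons, which both axes share. Members lie in the upper right (2314 higher) and lower left (2436 lower) quadrants, and the lower members reach further down on the cerebellar axis.

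Each pairwise comparison by itself called a large share of genes. Against layer V neurons, dentate granule cells were higher for 6426 genes (34.6%) and lower for 6543 (35.2%), and cerebellar granule cells were higher for 6924 (37.3%) and lower for 8383 (45.1%). Against interneurons, dentate granule cells were higher for 6357 (34.2%) and lower for 6713 (36.1%), and cerebellar granule cells were higher for 6678 (35.9%) and lower for 8387 (45.1%). Across the 18587 genes, the Pearson correlation of mean log2(CPM + 1) was 0.950 between dentate granule cells and layer V neurons, 0.943 between layer V neurons and interneurons, 0.925 between dentate granule cells and interneurons, and 0.866 between the granule types. Cerebellar granule cells were at 0.869 with interneurons and 0.862 with layer V neurons, so their correlation with dentate granule cells was no higher than with interneurons. These are descriptions across genes, which are not independent replicates, and the dentate and layer V libraries share a Cre line and a batch.

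In batch 2 alone, where 1 dentate and 1 cerebellar library stood against 1 layer V and 3 interneuron libraries, 3508 genes had both granule libraries above the 4 others (18.9%) and 2961 had both below (15.9%). Of the members tested, 2288 of 2314 higher and 2219 of 2436 lower ones were on their side in these libraries. With the normalization and filter of batch 2 by itself, 3187 genes were above and 3556 below, and 2255 higher and 2325 lower members kept their side. The batch 2 granule and layer V libraries were re-sequenced from replicates the rule had used and the interneuron libraries were the same, so this covers the batch and not new mice. Scaling moved the median difference of all genes, from -0.14 to -0.24 (a shift of -0.10) without normalization factors and by 0.13 on log2(TPM + 1), and small differences of whole gene groups are to be read against these shifts. The pseudocount of 1 TPM also makes the differences of genes with few counts smaller. On that scale the median was -0.28 for potassium channels, -0.28 for sodium, HCN and calcium channels and -0.43 for neuronal lineage transcription factors. It was -1.36 for neuropeptides and neurotrophins, -0.82 for immature neuron genes, -0.35 for GABA-A receptor subunits and -0.28 for C1q-like ligands and partners. Axon guidance and adhesion genes were at -0.25, cyclic nucleotide and calcium signalling at -0.26, vesicle release at -0.125, glycolysis at -0.14 and ion pumps at 0.09. Under DESeq2's size factors, no normalization factors and TPM, the larger of the higher and lower counts stayed the same for the 34 gene lists, except for Purkinje cell markers, choroid plexus markers and ion pumps. Within batch 1 it changed for astrocyte markers, Purkinje cell markers (2 and 2, median 0.58) and ion pumps (16 higher, 11 lower), and within batch 2 for choroid plexus markers and ion pumps (12 and 9).

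By the rule, the granule and the other libraries of a member do not overlap, so only overlaps between types on the same side are pointed out. Il16 (ENSMUSG00000001741.12, chromosome 7 from 83642825 to 83745726), the precursor of interleukin 16, whose neuronal form is a scaffold with PDZ domains, was at 101, 109 and 89.4 CPM in dentate libraries, 520.0, 499 and 537 in cerebellar libraries, 0.926, 1.11 and 0.799 in layer V libraries and 1.75, 2.08 and 1.80 in interneuron libraries. No granule library came near the other neurons, and the cerebellar libraries were the highest (log2 difference of the granule mean from the others 7.40, SE 0.074). St18 (ENSMUSG00000033740.17, chromosome 1 from 6487231 to 6860940), a zinc finger transcription factor of the Myt family, was at 95.4, 88.4 and 87.7 CPM in dentate, 314, 318 and 345 in cerebellar, 0.426, 0.530 and 0.576 in layer V and 8.16, 7.96 and 7.19 in interneuron libraries. Here the interneurons stood above layer V neurons and far below both granule types (log2 difference 6.42, SE 0.056). Maml2 (ENSMUSG00000031925.17, chromosome 9 from 13297957 to 13709388), a coactivator of Notch-dependent transcription, was at 132, 137 and 118 CPM in dentate, 52.5, 55.3 and 56.5 in cerebellar, 1.96, 2.57 and 2.19 in layer V and 4.19, 4.97 and 4.60 in interneuron libraries. Dentate libraries were the highest for this gene (log2 difference 4.70, SE 0.065). Lhfpl2 (ENSMUSG00000045312.12, chromosome 13 from 94057796 to 94195409), a membrane protein of the LHFPL tetraspan family, was at 91.5, 92.0 and 79.6 CPM in dentate and 91.9, 88.2 and 85.1 in cerebellar libraries. The granule types overlapped each other, and the others stayed at 6.99, 5.65 and 5.82 CPM in layer V and 5.12, 4.94 and 4.28 in interneuron libraries (log2 difference 4.02, SE 0.065).

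Il16-201 was the most abundant Il16 transcript in TPM in both granule types. It starts at chromosome 7 position 83735523 and was at 33.1, 39.2 and 31.8 TPM in dentate libraries and 178, 166 and 184 TPM in cerebellar libraries, with at most 0.648 TPM in any of the other 6 libraries. Il16-202, a shorter transcript starting at position 83732407, was at 21.9, 23.7 and 17.0 TPM in dentate and 13.3, 12.7 and 16.6 TPM in cerebellar libraries. Il16-203 was at 0.885, 1.29 and 1.73 TPM in dentate and 16.8, 21.1 and 7.36 TPM in cerebellar libraries.

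Further higher members with wide gaps included transport and junction genes. Slc4a4, a sodium bicarbonate cotransporter, was at 182, 198 and 176 CPM in dentate and 184, 263 and 288 in cerebellar libraries, and at 8.52, 8.39 and 8.23 in layer V and 15.9, 20.6 and 22.5 in interneuron libraries. The gene is also on the astrocyte list, of whose 10 genes it was the 1 higher member, while Aldh1l1 and S100b were lower members (log2 difference of Slc4a4 4.05, SE 0.12). Ocln, the tight junction protein occludin, was at 19.2 CPM or more in granule libraries and 2.09 or less in the others (4.18, SE 0.12). Slc29a4, the plasma membrane monoamine transporter, was at 90.3 CPM or more against 19.5 or less (2.96, SE 0.051). Trpm3, a calcium-permeable cation channel, lay between 219 and 408 CPM in granule libraries and between 23.2 and 44.9 in the others (3.27, SE 0.11).

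Another set acts inside the cell. Cecr2, a bromodomain protein of chromatin remodelling complexes, was at 16.6 CPM or more in granule and 1.40 or less in other libraries (4.37, SE 0.098). Tanc1, a postsynaptic scaffold, was at 329, 318 and 285 CPM in dentate, 242, 224 and 232 in cerebellar, 25.3, 25.1 and 29.3 in layer V and 25.1, 22.4 and 19.8 in interneuron libraries, with the layer V and interneuron libraries at like levels (3.46, SE 0.064). Plk5, a polo-like kinase of neurons, was at 91.2, 79.5 and 70.9 CPM in dentate and 79.2, 81.5 and 76.4 in cerebellar libraries. Its granule libraries overlapped, and layer V (9.99, 9.66 and 10.1) stood above interneurons (1.88, 2.30 and 2.23; 4.11, SE 0.067). Kif26b, of the kinesin family, reached 126 CPM or more in granule libraries and 20.98 or less in the others (3.75, SE 0.066). Btbd3, which orients dendrites toward active inputs, was at 842, 818 and 841 CPM in dentate, 1134, 1181 and 1242 in cerebellar, 103, 108 and 116 in layer V and 128, 137 and 139 in interneuron libraries (3.04, SE 0.038). Lyst, a regulator of lysosome size, was at 84.8 CPM or more against 17.1 or less (2.73, SE 0.056).

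**Figure D2:**
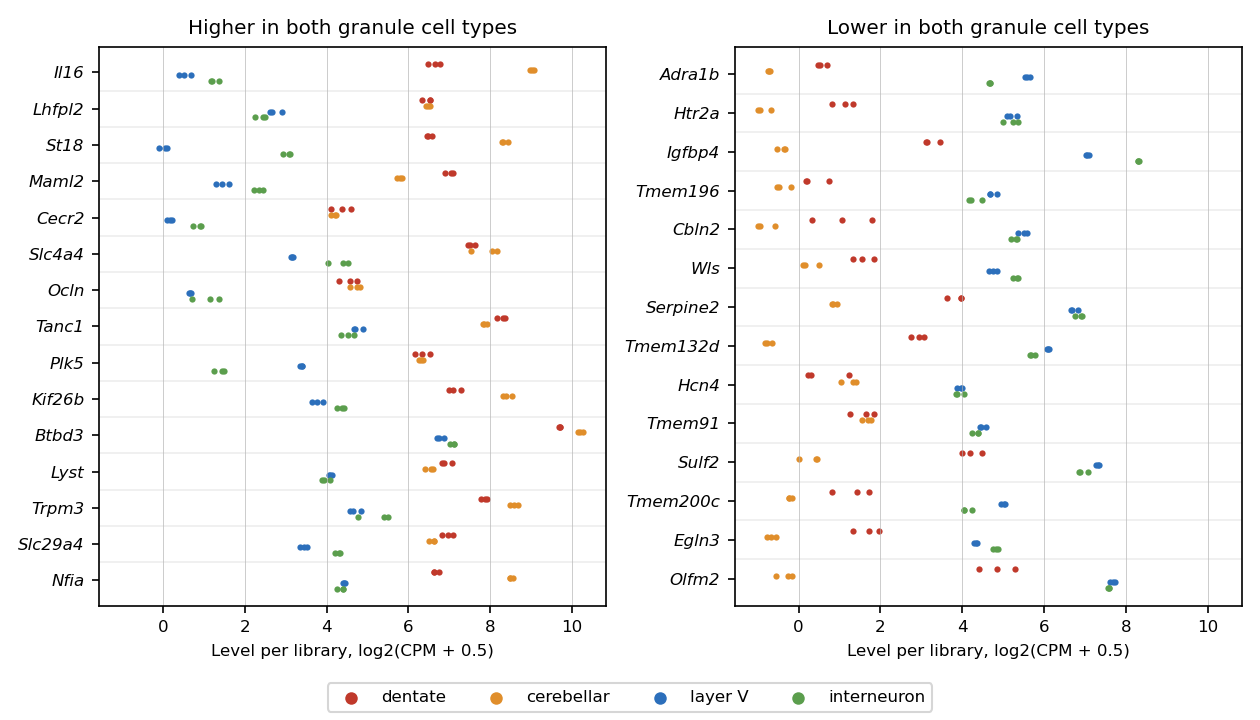
Level in each of the 12 libraries, as log2(CPM + 0.5), for the 15 higher (left) and 14 of the 15 lower (right) protein-coding members with the largest gap between granule and other libraries; each point is a library, coloured by cell type. Il16 leads the left panel and Adra1b the right panel, and in many genes of the right panel the cerebellar points lie below the dentate points.

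Among the lower members, Adra1b (ENSMUSG00000050541.14, chromosome 11 from 43774606 to 43901210), the alpha-1B adrenergic receptor, was at 0.944, 0.884 and 1.13 CPM in dentate, 0.0989, 0.111 and 0.101 in cerebellar, 50.3, 47.7 and 46.2 in layer V and 25.0, 24.6 and 25.1 in interneuron libraries. All granule libraries were at 1.13 CPM or below, and dentate libraries stood above cerebellar ones (log2 difference -6.74, SE 0.066). Htr2a (ENSMUSG00000034997.5, chromosome 14 from 74640840 to 74709494), the serotonin 2A receptor, was at 1.27, 1.69 and 2.01 CPM in dentate, 0.0165, 0 and 0.122 in cerebellar, 33.7, 40.0 and 35.7 in layer V and 31.3, 37.5 and 40.5 in interneuron libraries. Layer V neurons and interneurons overlapped each other for this gene, far above both granule types (-7.02, SE 0.18). Igfbp4 (ENSMUSG00000017493.12, chromosome 11 from 99041244 to 99054392), which binds insulin-like growth factors, was at 8.35, 8.14 and 10.5 CPM in dentate, 0.198, 0.290 and 0.284 in cerebellar, 137, 132 and 129.8 in layer V and 320.5, 316 and 313 in interneuron libraries. Interneurons were the highest, and the dentate libraries stood between the cerebellar and the layer V libraries (-7.08, SE 0.073).

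Other lower members with wide gaps included genes of secreted proteins. Cbln2, a synapse-organizing cerebellin, was at 0.745, 1.59 and 2.94 CPM in dentate, 0.165, 0 and 0.0203 in cerebellar, 40.6, 44.9 and 47.6 in layer V and 35.96, 39.9 and 39.4 in interneuron libraries (-6.84, SE 0.28). Serpine2, an inhibitor of thrombin and other serine proteases, was at 15.2 CPM or less in granule and 101 or more in other libraries (-4.69, SE 0.074). Sulf2, which removes sulfate from heparan sulfate, was at 15.5, 17.8 and 21.8 CPM in dentate, 0.874, 0.846 and 0.507 in cerebellar, 154, 159 and 162 in layer V and 134, 118 and 115 in interneuron libraries (-5.23, SE 0.099). Olfm2, a secreted olfactomedin, was at 20.8, 28.5 and 38.6 CPM in dentate libraries, where replicate 3 was the highest, and at 0.330, 0.401 and 0.182 in cerebellar libraries. Its other libraries lay between 189 and 213 CPM (-6.05, SE 0.16). Wls, which carries Wnt proteins to the surface, was at 3.08 CPM or less against 24.8 or more (-4.59, SE 0.11).

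Membrane proteins without a known shared role followed the same pattern. Tmem132d was at 6.21, 7.26 and 7.82 CPM in dentate and 0.0659, 0.0891 and 0.142 in cerebellar libraries, against 50.3 or more in the others (-6.15, SE 0.082). Tmem196 was at 1.18 CPM or less against 17.5 or more (-5.58, SE 0.15), Tmem200c at 2.78 against 15.9 (-4.73, SE 0.14) and Tmem91 at 3.09 against 18.3 (-3.01, SE 0.094). Egln3, a prolyl hydroxylase of the oxygen-sensing pathway, was at 3.41 CPM or less against 19.0 or more (-5.26, SE 0.13).

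Transcription factors of neuronal lineages divided between the sides. Of 58 tested, 25 were higher and 31 lower by the contrast, 10 and 12 were members, and the median log2 difference was -1.06, against -0.14 for all genes. Neurod1 (ENSMUSG00000034701.9, chromosome 2 from 79452521 to 79456751), a basic helix-loop-helix factor of granule neuron differentiation, was at 47.0, 46.2 and 44.3 CPM in dentate, 987, 962 and 986 in cerebellar, 13.5, 14.7 and 14.2 in layer V and 0.797, 0.591 and 0.908 in interneuron libraries. The cerebellar libraries were far above all others, while the dentate libraries were a few fold above layer V (6.02, SE 0.053). Prox1 (ENSMUSG00000010175.13, chromosome 1 from 190118035 to 190170714), the homeodomain factor that marks dentate granule cells, was at 597, 573 and 494 CPM in dentate libraries and at 97.7, 103 and 106 in cerebellar libraries. Interneurons followed at 40.6, 47.6 and 45.9 CPM and layer V neurons were nearly without it at 1.91, 1.27 and 2.32, so Prox1 was a member although interneurons held it too (4.73, SE 0.093). Neurod2, a relative of Neurod1, was at 601, 639.8 and 516 CPM in dentate, 455, 477 and 427 in cerebellar, 262, 246 and 219 in layer V and 9.91, 9.25 and 11.2 in interneuron libraries, the order of glutamate neurons above GABA neurons (3.38, SE 0.069).

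Nuclear factor I and Bcl6 were also on the higher side. Nfia was at 107, 98.6 and 98.5 CPM in dentate, 376, 359 and 355 in cerebellar, 21.4, 20.9 and 20.6 in layer V and 20.7, 20.6 and 18.4 in interneuron libraries, with layer V neurons and interneurons overlapping (3.23, SE 0.038). Bcl6, a transcriptional repressor from the layer V marker list, went against that list: it was at 161, 165 and 151 CPM in dentate, 259, 230.1 and 194 in cerebellar, 63.4, 63.5 and 68.3 in layer V and 15.4, 15.6 and 20.7 in interneuron libraries. The other 7 layer V markers were lower by the contrast, 2 as members, and Bcl6 was the 1 higher gene (2.51, SE 0.081). Satb1, a chromatin-organizing factor of interneurons and other neurons, was a lower member, at 37.8, 40.9 and 63.3 CPM in dentate, 43.4, 43.7 and 42.4 in cerebellar, 140.2, 145 and 145 in layer V and 194, 193 and 216 in interneuron libraries (-1.91, SE 0.1). Lhx6, a factor of GABA neurons, was a lower member, at 239.7 ± 1.38 CPM in interneurons and 4.42 ± 0.260 CPM in layer V neurons (SD, n = 3). All 13 interneuron markers were lower by the contrast and 10 were members. Factors of the hindbrain, such as Zic1 (2477 ± 34.2 CPM in cerebellar and 1.86 ± 0.355 in dentate libraries), En2 and Barhl2, were higher by the mean contrast through the cerebellar type alone and were not members, and of the 8 cerebellar markers all were higher with 1 member. The 6 dentate markers gave 3 higher and 1 lower by the contrast, with Prox1 as the 1 member.

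Promoters are shown for Il16, the first higher member by gap, and for 3 transcription factor genes, since Neurod factors bind E-boxes (CANNTG, a palindrome in form, so searched once) and prefer the form CAGATG, searched on both strands. The windows run from 250 bases before to 50 bases after the annotated start (RefSeq, GRCm38.p6), printed 5′ to 3′ on the gene's strand, with CAGATG or its complement CATCTG in capitals. The Il16 window held 3 matches, those of Prox1 and Neurod2 held 1 each, and those of Neurod1 and of the lower member Adra1b (sequence not shown) held 0. The windows lie at chr7:83735490-83735789 (Il16), chr1:190170778-190171077 (Prox1), chr11:98329596-98329895 (Neurod2) and chr2:79456587-79456886 (Neurod1), all on the minus strand. The most abundant transcript of Prox1 starts at position 190170714, outside the window shown. That of Adra1b starts at position 43836332, outside its window (chr11:43836440-43836739).
Il16: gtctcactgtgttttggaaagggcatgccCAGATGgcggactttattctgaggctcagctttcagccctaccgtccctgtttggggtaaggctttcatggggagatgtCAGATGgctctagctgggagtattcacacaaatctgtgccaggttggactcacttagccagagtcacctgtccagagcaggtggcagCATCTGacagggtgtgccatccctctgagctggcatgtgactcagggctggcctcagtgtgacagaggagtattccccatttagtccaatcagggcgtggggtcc
Prox1: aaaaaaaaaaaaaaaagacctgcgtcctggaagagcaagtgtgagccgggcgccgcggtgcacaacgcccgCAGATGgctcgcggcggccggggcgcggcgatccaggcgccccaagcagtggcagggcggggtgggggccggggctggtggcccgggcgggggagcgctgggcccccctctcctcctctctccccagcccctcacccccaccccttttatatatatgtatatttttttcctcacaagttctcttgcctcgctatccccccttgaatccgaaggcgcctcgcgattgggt
Neurod2: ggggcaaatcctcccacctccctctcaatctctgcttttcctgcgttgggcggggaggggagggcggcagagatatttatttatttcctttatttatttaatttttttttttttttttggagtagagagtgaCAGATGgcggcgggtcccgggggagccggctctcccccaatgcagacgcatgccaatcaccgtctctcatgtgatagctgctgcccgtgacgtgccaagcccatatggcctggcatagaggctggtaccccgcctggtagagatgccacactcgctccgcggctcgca
Neurod1: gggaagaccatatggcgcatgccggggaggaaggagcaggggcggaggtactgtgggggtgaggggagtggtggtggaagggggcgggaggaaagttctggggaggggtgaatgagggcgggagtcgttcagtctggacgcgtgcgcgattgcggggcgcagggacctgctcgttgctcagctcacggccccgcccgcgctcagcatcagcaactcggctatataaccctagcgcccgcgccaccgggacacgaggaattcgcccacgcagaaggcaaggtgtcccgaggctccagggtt

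Members as a group did not carry this motif more often. CAGATG was found in 17.2% of 27025 promoters (first listed start of each symbol), in 12.8% of the 12989 genes tested that had a promoter there, in 10.6% of 1791 higher and in 12.1% of 1817 lower members. For CANNTG, which includes CAGATG, the shares were 72.1%, 64.7%, 59.0% and 66.2%. The 300-base windows of higher members held a median of 24 CG dinucleotides, against 19 for genes tested and 18 for lower members. A match is a description of letters in a window, and whether any factor binds there was not measured.

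Ion pumps and exchangers, which restore sodium, potassium and calcium gradients after activity, had no common direction. Of 29 tested, 11 were higher and 12 lower, with 5 higher and 3 lower members (12.4% and 13.1% of all genes tested). The median of 0.21 was 0.23 by DESeq2, 0.11 without normalization factors and 0.09 on log2(TPM + 1). It was 0.08 without interneuron replicate 3 and 0.007 within batch 2. Of the beta subunits of the sodium-potassium pump, Atp1b2 was a higher member, at 263, 267 and 251 CPM in dentate, 1858, 1804 and 1753 in cerebellar, 196, 194 and 191 in layer V and 202, 219 and 204 in interneuron libraries (1.77, SE 0.03). Atp1b1 was a lower member, at 1831, 1859 and 1846 CPM in dentate, 1603, 1587 and 1587 in cerebellar, 2104, 2053 and 2121 in layer V and 3395, 3432 and 3382 in interneuron libraries (-0.64, SE 0.022).

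Calcium extrusion genes divided likewise. Atp2b3, a plasma membrane calcium pump, was at 226, 220.2 and 207 CPM in dentate, 581, 576 and 609 in cerebellar, 58.2, 53.2 and 59.1 in layer V and 127, 124 and 115 in interneuron libraries (2.11, SE 0.038). Slc8a2, a sodium-calcium exchanger, was at 1058, 1029 and 952 CPM in dentate, 491, 502 and 471 in cerebellar, 411, 400.4 and 402 in layer V and 77.2, 75.3 and 70.4 in interneuron libraries, with dentate libraries the highest (2.02, SE 0.035). Slc24a3, an exchanger that also moves potassium, was a lower member, with 165 CPM in its highest granule library and 206 in its lowest other library, and with cerebellar libraries at 7.16, 6.99 and 6.30 CPM (-2.77, SE 0.042).

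Potassium channels were lower more often than higher, most of all in the cerebellar type, with shares of members near those of all genes (12.4% and 13.1%). Of 83 tested, 22 were higher and 53 lower, with 8 and 12 members and a median of -1.55, which was -1.08 with genes of an all-0 type set to the floor of 3 counts over the 3 libraries. Cerebellar granule cells had 20 higher and 55 lower against interneurons and 21 and 53 against layer V neurons. Dentate granule cells had 42 higher and 27 lower against interneurons but 28 and 39 against layer V neurons. Kcnd2, which encodes the A-type channel Kv4.2, was at 215, 209 and 193 CPM in dentate, 726, 716 and 775 in cerebellar, 93.7, 94.9 and 91.3 in layer V and 62.1, 64.8 and 74.2 in interneuron libraries (2.30, SE 0.046). Dpp6, an auxiliary subunit of these channels named after its values were seen, was at 627, 646 and 599 CPM in dentate, 754, 737 and 754 in cerebellar, 278, 259 and 270.3 in layer V and 409, 395 and 386 in interneuron libraries (1.06, SE 0.029).

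Other channels went to either side. Kcnc2, for Kv3.2 of fast-spiking interneurons, was at 7.52, 7.72 and 13.4 CPM in dentate, 0.198, 0.111 and 0.203 in cerebellar, 44.7, 44.9 and 42.1 in layer V and 481, 475 and 527 in interneuron libraries (-6.82, SE 0.16). Kcnj6, a G-protein-gated inward rectifier subunit, was at 37.7 CPM or more in granule and 21.99 or less in other libraries (1.73, SE 0.073). Kcnk10, a leak channel, was at 10.3, 10.9 and 10.8 CPM in dentate and 83.9, 85.8 and 90.6 in cerebellar libraries, and at 6.34 or less in the others (2.71, SE 0.077). Kcnq5, a subunit of the M-type current, was at 16.1 CPM or less against 38.2 or more (-3.83, SE 0.16). Kcnh7, of the ether-a-go-go family, was close to its edge against interneurons, at 24.04, 25.9 and 24.8 CPM in dentate and 27.4, 34.2 and 32.2 in interneuron libraries (-3.72, SE 0.065).

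Sodium, HCN and calcium channel genes counted 11 higher and 21 lower of 34, with 3 and 8 members and a median of -0.96. Cacna1e, the pore of the R-type calcium channel, was at 448, 402 and 393 CPM in dentate, 380.2, 397 and 406 in cerebellar, 145, 130.1 and 142 in layer V and 48.2, 51.8 and 36.7 in interneuron libraries (2.34, SE 0.072). Cacna1c, the L-type channel Cav1.2, was at 180.4, 171 and 178 CPM in dentate, 111, 104 and 118 in cerebellar, 55.8, 52.4 and 53.4 in layer V and 47.5, 47.8 and 47.1 in interneuron libraries (1.47, SE 0.033). Hcn4, a pacemaker channel opened by hyperpolarization, was a lower member at 0.672, 1.85 and 0.732 CPM in dentate, 1.55, 2.16 and 2.01 in cerebellar, 15.2, 15.4 and 14.2 in layer V and 14.2, 16.1 and 13.8 in interneuron libraries (-3.41, SE 0.17). Scn4b, the beta-4 sodium channel subunit, was at 4.79, 6.53 and 26.2 CPM in dentate, 4.72, 3.88 and 4.20 in cerebellar, 185, 164 and 173 in layer V and 38.9, 44.7 and 81.6 in interneuron libraries. Dentate replicate 3 and interneuron replicate 3 stood above their groups for this gene, and its standard error was wide (-3.73, SE 0.36).

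Cyclic nucleotide and calcium signalling genes counted 35 higher and 60 lower of 105, with 10 and 16 members, shares near those of all genes tested, and a median of -0.43, but dentate granule cells had 51 higher and 41 lower against interneurons and 34 and 47 against layer V neurons. Adcy1, a calcium-stimulated adenylyl cyclase, was at 2299, 2242 and 2158 CPM in dentate, 3052, 2921 and 3168 in cerebellar, 516, 505 and 502 in layer V and 398, 409.5 and 388 in interneuron libraries. Both granule types were several fold above both other types (2.54, SE 0.031). Its transcript Adcy1-201 stood at 339, 357 and 343 TPM in dentate and 458, 433 and 461 TPM in cerebellar libraries, against 60.7 to 66.8 TPM elsewhere. Ryr2, a calcium release channel of the endoplasmic reticulum, was at 248, 201 and 227 CPM in dentate, 195, 194 and 216 in cerebellar, 64.7, 63.6 and 68.8 in layer V and 50.0, 52.4 and 44.2 in interneuron libraries (1.91, SE 0.057).

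On the lower side, Pde2a, Rgs4 and Camk1g were close to 0 in cerebellar granule cells and well above 0 in dentate granule cells. Pde2a, a phosphodiesterase stimulated by cyclic GMP, was at 247, 294 and 279.8 CPM in dentate, 1.07, 0.980 and 0.791 in cerebellar, 462, 474 and 482 in layer V and 349, 316 and 304 in interneuron libraries (-4.59, SE 0.064). Dentate libraries lay just under the interneurons, so the large mean difference came from the cerebellar libraries. Rgs4, which speeds the shut-off of G proteins, was at 100.3, 113 and 102 CPM in dentate, 1.12, 1.49 and 0.973 in cerebellar, 609.7, 672 and 592 in layer V and 129.8, 129 and 147 in interneuron libraries (-4.70, SE 0.071). Camk1g, a calcium/calmodulin-dependent kinase, was at 16.5 CPM or less in granule and 68.9 or more in other libraries (-5.10, SE 0.17).

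GABA-A receptor subunits numbered 5 higher and 10 lower of 17, with 1 higher and 4 lower members and a median of -0.71. The median was -0.43 without interneuron replicate 2 and -0.35 on log2(TPM + 1). In the pairwise comparisons more were lower than higher only against interneurons. Against layer V neurons dentate granule cells had 7 higher and 5 lower and cerebellar granule cells 8 and 8, and within batch 1 the list had 7 higher and 8 lower with a median of 0.15. Within batch 2, which holds the interneurons, its median was -0.89. Gabra3 was a lower member, at 15.9, 23.98 and 23.04 CPM in dentate, 1.24, 1.07 and 0.912 in cerebellar, 126, 118 and 124 in layer V and 99.1, 100.5 and 95.2 in interneuron libraries (-4.53, SE 0.1). Gabrg3 was at 8.35, 9.57 and 9.55 CPM in dentate, 0.0659, 0 and 0.0608 in cerebellar, 33.5, 27.9 and 29.8 in layer V and 89.97, 93.7 and 84.5 in interneuron libraries (-6.31, SE 0.11). Gabrd, the delta subunit of extrasynaptic receptors, was higher by the mean contrast but not a member. Its dentate libraries (62.8, 57.5 and 54.4 CPM) lay above interneurons (51.3, 46.7 and 53.0) but not all above layer V (55.3, 55.2 and 52.8). Its cerebellar libraries were at 365, 353 and 339 CPM.

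Glutamate receptors and their auxiliary subunits had 6 higher and 34 lower of 41, with no higher and 3 lower members and a median of -1.53. The direction was that of cerebellar granule cells: against layer V neurons they had 9 higher and 30 lower, while dentate granule cells had 20 higher and 17 lower, and 16 and 14 against interneurons. Gria1, an AMPA receptor subunit, was at 1432 ± 49.2 CPM in dentate, 10.001 ± 0.161 in cerebellar, 266 ± 13.8 in layer V and 1547 ± 116 in interneuron libraries (SD, n = 3). Grik1, a kainate receptor subunit, was a lower member at 1.82, 2.18 and 2.38 CPM in dentate, 1.48, 1.34 and 1.22 in cerebellar, 4.65, 5.30 and 5.00 in layer V and 107, 101 and 102 in interneuron libraries (-3.74, SE 0.067). Grm8, a presynaptic metabotropic receptor, was at 6.92 CPM or less against 7.34 or more, with dentate replicate 3 nearest to the interneurons (-4.41, SE 0.24).

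Neuropeptides, neurotrophins and their receptors were mostly lower, with 6 higher and 27 lower of 33, 4 and 16 members and a median of -2.83. The median was -2.77 with all-0 types at the floor and -1.36 on log2(TPM + 1). Against layer V neurons and interneurons it was -0.79 and -1.44 in dentate and -4.84 and -5.66 in cerebellar granule cells. Higher members included genes of growth factors and of a receptor. Ntf3, which encodes neurotrophin 3, was at 29.1, 26.1 and 24.8 CPM in dentate, 17.9, 16.1 and 17.6 in cerebellar, 2.09, 1.54 and 2.36 in layer V and 7.99, 6.95 and 5.59 in interneuron libraries (2.54, SE 0.1). Ntrk3, whose product is the receptor of neurotrophin 3, was at 397, 409 and 391.6 CPM in dentate, 453, 425 and 426 in cerebellar, 137, 134 and 158 in layer V and 193, 213 and 195 in interneuron libraries (1.30, SE 0.044). Nrg2, a neuregulin, was at 12.4, 12.5 and 10.7 CPM in dentate, 39.4, 37.5 and 39.0 in cerebellar, 5.43, 5.83 and 4.98 in layer V and 10.1, 8.41 and 8.92 in interneuron libraries, the dentate libraries being just above the interneurons (1.60, SE 0.06). Bdnf was not a member, at 65.6 ± 1.18 CPM in dentate, 34.8 ± 0.942 in cerebellar, 50.7 ± 1.65 in layer V and 1.39 ± 0.225 in interneuron libraries (SD, n = 3). Npy, the neuropeptide Y gene, was a lower member at 2.25, 2.65 and 3.71 CPM in dentate, 0.0165, 0.178 and 0.0405 in cerebellar, 18.01, 18.1 and 15.2 in layer V and 316, 290.1 and 332 in interneuron libraries (-7.31, SE 0.15).

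The vesicle release machinery was split, with 22 higher and 27 lower of 55 and a median of -0.21. It had 5 and 10 members, where 12.4% and 13.1% of all genes tested were members. Cplx2, a complexin that clamps and triggers fusion, was at 5099.8, 5459 and 5047 CPM in dentate, 3622, 3511 and 3444 in cerebellar, 1919, 1872 and 1862 in layer V and 1681, 1637 and 1622 in interneuron libraries (1.28, SE 0.029). Syt1, a calcium sensor of fast release, was a lower member at 833, 871 and 963 CPM in dentate, 1209, 1272 and 1280.3 in cerebellar, 1736, 1719.5 and 1707 in layer V and 2397, 2434 and 2341 in interneuron libraries (-0.94, SE 0.035). Rab3c, a vesicle GTPase, was at 513 CPM or less against 933 or more (-1.65, SE 0.058), and Rab3b at 37.4 or less against 40.7 or more (-5.46, SE 0.13). Rab3b in cerebellar libraries was at 0.264, 0.2004 and 0.264 CPM.

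Synapse organizers and adhesion genes went to both sides. Among C1q-like ligands, cerebellins and their partners, 6 of 18 were higher and 10 lower, with 1 and 4 members and a median of -0.58. The higher member was Adgrb3, a receptor of C1q-like proteins, at 124, 126 and 119.6 CPM in dentate, 79.1, 81.5 and 85.7 in cerebellar, 71.3, 68.1 and 69.9 in layer V and 75.5, 73.2 and 66.7 in interneuron libraries (0.51, SE 0.034). Its ligand C1ql2 was at 529 ± 51.1 CPM in dentate and 0.0123 ± 0.0108 in cerebellar libraries, whereas Cbln1 was at 9.08 ± 3.58 and 2178 ± 61.6 CPM (SD, n = 3), so each granule type carried a different ligand gene of the C1q family. Axon guidance and adhesion genes counted 34 higher and 64 lower of 111, with a median of -0.70. They had 9 and 18 members, where 12.4% and 13.1% of all genes tested were members. The median was -0.25 on log2(TPM + 1) and -0.34 within batch 1. Dentate granule cells had 54 higher and 44 lower against layer V neurons and 45 and 53 against interneurons. Plxnb2, a semaphorin receptor, was at 52.7, 54.9 and 52.3 CPM in dentate, 212, 219 and 219 in cerebellar, 20.6, 20.5 and 20.1 in layer V and 22.7, 24.7 and 20.9 in interneuron libraries (2.32, SE 0.037). Cdh15, M-cadherin, is listed as a cerebellar marker and was still a member, at 7.21, 8.24 and 5.36 CPM in dentate, 144, 137 and 139.7 in cerebellar, 3.28, 4.09 and 3.44 in layer V and 2.35, 2.36 and 1.64 in interneuron libraries (3.48, SE 0.11). Ephb6, an Eph receptor without kinase activity, was lower at 37.8, 36.2 and 37.5 CPM in dentate, 0.495, 0.0891 and 0.284 in cerebellar, 187, 180.3 and 161 in layer V and 64.9, 59.7 and 69.4 in interneuron libraries (-4.97, SE 0.11). Cdh11, a cadherin, was at 46.3 CPM or less in granule and 58.0 or more in other libraries (-3.95, SE 0.092).

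Chromatin proteins and DNA methylation genes were mostly higher in granule cells. Of 113 tested, 84 were higher and 21 lower, 53 and 10 were members, and the median was 0.63 against -0.14 for all genes. More genes were higher than lower in each pairwise comparison: 80 against 20 for dentate and 81 against 24 for cerebellar granule cells over layer V neurons, and 73 against 22 and 77 against 25 over interneurons. Within batch 1 the list had 85 higher and 20 lower, and within batch 2 its median was 0.65. Chd7, a chromatin remodeller needed in cerebellar and hippocampal development, was at 23.1, 16.9 and 19.4 CPM in dentate, 296, 327 and 352 in cerebellar, 3.30, 3.04 and 3.18 in layer V and 8.20, 8.75 and 7.996 in interneuron libraries (3.97, SE 0.076). Cerebellar libraries were far above dentate libraries, which were themselves above the rest. Smarcd2, a SWI/SNF subunit, was at 35.4, 28.2 and 28.3 CPM in dentate, 68.5, 69.3 and 70.0 in cerebellar, 8.88, 8.98 and 8.51 in layer V and 6.79, 6.90 and 6.89 in interneuron libraries (2.57, SE 0.057). Kdm6a, an X-linked demethylase of histone H3, was at 34.4, 31.7 and 23.3 CPM in dentate, 68.2, 51.1 and 55.6 in cerebellar, 8.60, 9.97 and 8.36 in layer V and 9.60, 10.04 and 8.39 in interneuron libraries (2.18, SE 0.1). Kmt2c, a histone methyltransferase, was at 89.2 CPM or more in granule and 37.4 or less in other libraries (1.97, SE 0.049). Against this direction, Chd5, a neuronal remodeller, was lower at 182, 202 and 206 CPM in dentate, 13.9, 10.8 and 11.5 in cerebellar, 419, 408 and 412 in layer V and 388, 382 and 387 in interneuron libraries (-3.03, SE 0.054). Hmgb3, a high mobility group protein, was at 8.91 CPM or less against 28.6 or more (-2.37, SE 0.088).

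Nuclear-encoded genes of the respiratory chain were mostly lower. Of 103 tested, 5 were higher and 85 lower, none was a higher member and 51 were lower members, with a median of -0.44. Within batch 1 the list had 9 higher and 80 lower, and within batch 2 its median was -0.39. In the pairwise comparisons 2 were higher and 88 lower for dentate and 16 and 70 for cerebellar granule cells against layer V neurons, and 4 and 87 and then 14 and 61 against interneurons. Cox7b, a subunit of cytochrome c oxidase, was at 68.9, 75.8 and 84.2 CPM in dentate, 85.9, 86.2 and 86.5 in cerebellar, 151, 155 and 160.1 in layer V and 152, 140.5 and 149 in interneuron libraries (-0.90, SE 0.043). Ndufaf2, which helps to assemble complex I, was at 8.98 CPM or less against 14.2 or more (-0.95, SE 0.063). The largest difference was that of Cox6a2, the form of a cytochrome c oxidase subunit found in muscle and in fast-spiking interneurons, which had no count in the 3 cerebellar libraries and was at 0.218, 0.182 and 0.0563 CPM in dentate, 2.43, 2.29 and 1.95 in layer V and 21.5, 20.7 and 25.9 in interneuron libraries. With the cerebellar libraries set to a floor of 3 counts over the group, its log2 difference was at most -7.03, which is a bound. The most abundant gene of the list, Atp5b, was not a member, at 1170.1 ± 39.8 CPM in dentate, 2016 ± 14.1 in cerebellar, 1283 ± 10.9 in layer V and 1657 ± 74.1 in interneuron libraries (SD, n = 3).

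mRNAs encoded in the mitochondrial genome did not share this: 10 of 13 were lower by the mean contrast and 3 were not called, no gene of the list was a member, and dentate granule cells had 9 higher and 1 lower against layer V neurons while cerebellar granule cells had 12 lower. mt-Co2 was at 325 ± 86.1 CPM in dentate, 62.6 ± 16.5 in cerebellar, 149 ± 39.5 in layer V and 237 ± 19.4 in interneuron libraries (SD, n = 3). Within batch 1, 1 of the 13 was higher and 6 lower, and within batch 2 the median was -0.18, against -0.56 in the main fit. Cytosolic ribosomal proteins counted 8 higher and 70 lower of 84 with a median of -0.29, but only 2 higher and 3 lower members, since dentate granule cells had 57 higher and 5 lower against interneurons, and 13 and 42 against layer V neurons. Both higher members were small differences: Rpl5 was at 37.8, 39.6 and 41.8 CPM in dentate, 43.3, 43.0 and 45.9 in cerebellar, 28.1, 32.0 and 29.1 in layer V and 23.9, 24.9 and 25.9 in interneuron libraries (0.62, SE 0.042). Rps15a was at 123.3 CPM or more against 104 or less (0.54, SE 0.034), and by limma on log2(TPM + 1) its difference was 0.10 and no longer passed. Genes of tRNA supply and ribosome rescue had 48 higher and 28 lower of 95, with 22 and 11 members and a median of 0.13, but dentate granule cells had 34 higher and 36 lower against interneurons, and without normalization factors the list had 44 higher and 38 lower (median 0.03). Gtpbp1, a GTPase that helps to resolve stalled ribosomes, was at 104, 113 and 104 CPM in dentate, 192, 194 and 187 in cerebellar, 73.5, 72.9 and 68.3 in layer V and 61.6, 57.2 and 56.3 in interneuron libraries (1.14, SE 0.034). Eprs, which charges glutamate and proline tRNAs, was at 76.0 CPM or more against 64.4 or less (0.98, SE 0.033). Polr3d, a subunit of RNA polymerase III, was at 18.6 CPM or less against 22.7 or more (-0.74, SE 0.037).

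**Figure D3:**
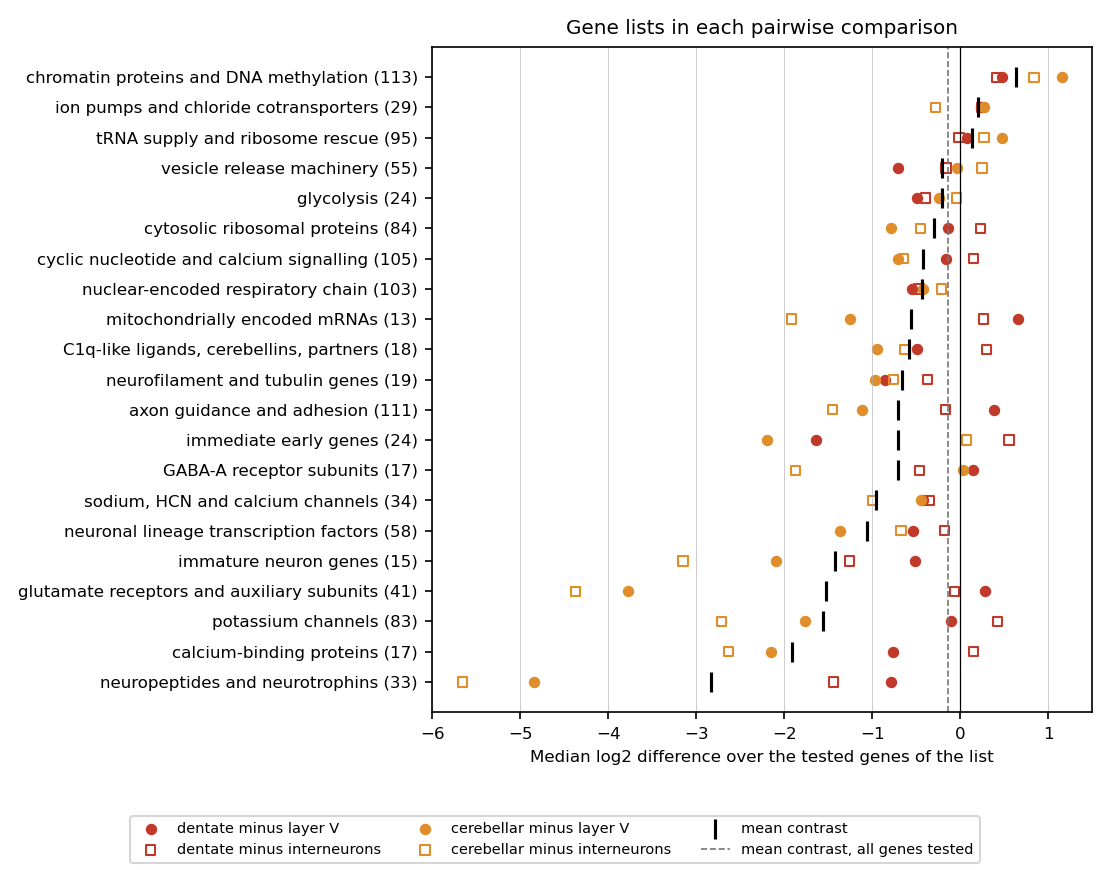
Median log2 difference over the tested genes of each of 21 gene lists (number tested in brackets) in the 4 pairwise comparisons and in the mean contrast; the dashed line is the median of the contrast over all genes tested (-0.14). Chromatin genes lie to the right of 0 and respiratory chain genes to the left of 0 in all 4 comparisons, while glutamate receptors and potassium channels are far below 0 in the cerebellar but not in the dentate comparisons.

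Transcript length differed between lists. Chromatin genes had a median length of 3422 bases, respiratory chain genes 717 and ribosomal protein genes 694. Sodium, HCN and calcium channels were at 5978 bases and glutamate receptors at 4144. Among members, protein-coding higher members had a median length of 3626 bases and lower members 2063, against 2644 for all protein-coding genes tested. Their genomic spans had medians of 39817, 18614 and 25043 bases. In 4 bins of equal size by transcript length, from short to long, the median log2 difference was -0.36, -0.15, 0.01 and 0.24, the share of higher members was 4.8%, 9.99%, 17.9% and 25.5%, and the share of lower members fell from 21.3% in the shortest to 7.7% in the longest bin. Within batch 1 (granule cells against layer V neurons) the medians were -0.38, -0.08, 0.13 and 0.37, and within batch 2 they were -0.34, -0.14, 0.04 and 0.27. The part of length in the differences of these lists was not tested.

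**Figure D4:**
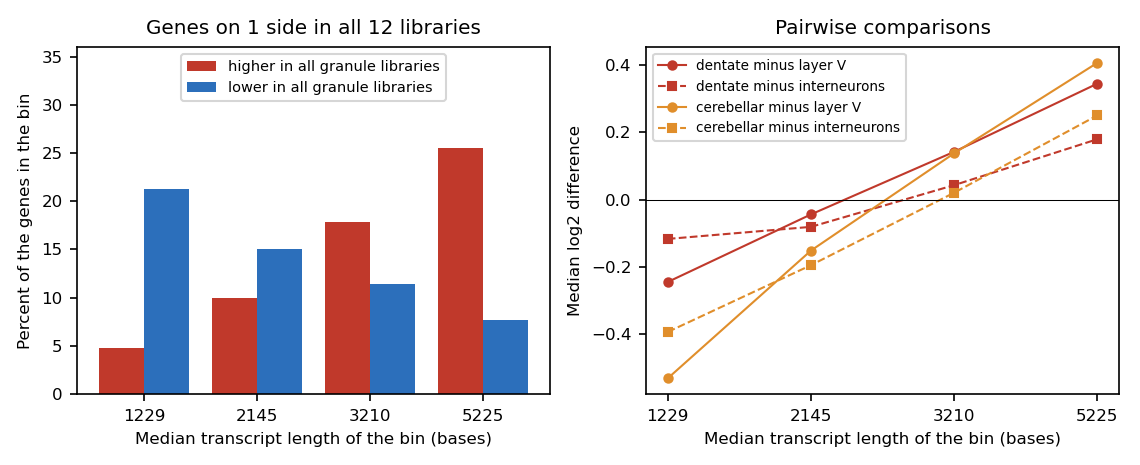
Protein-coding genes tested, in 4 bins by transcript length (x axes, median length of each bin in bases): the share that were higher or lower members, in percent (left), and the median log2 difference in each of the 4 pairwise comparisons (right). The share of higher members goes from 4.8% in the shortest to 25.5% in the longest bin.

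Neurofilament, tubulin and immature neuron genes were mostly lower by the mean contrast. The neurofilaments and tubulins had 2 higher and 14 lower of 19, with 5 lower members and a median of -0.66. Nefh, the heavy neurofilament of large axons, was at 27.5, 30.8 and 47.9 CPM in dentate, 11.7, 9.02 and 9.16 in cerebellar, 144, 139 and 154 in layer V and 281, 268 and 249 in interneuron libraries (-3.38, SE 0.12). Tubb3, a neuronal beta tubulin, was at 136, 177 and 232 CPM in dentate, 445, 417 and 419 in cerebellar, 843, 836 and 824 in layer V and 775, 746 and 726 in interneuron libraries (-1.50, SE 0.093). Of 15 immature neuron genes 2 were higher and 12 lower, with 4 lower members and a median of -1.43. In dentate granule cells 4 were higher and 6 lower against layer V neurons (median -0.51) and 3 and 9 against interneurons (-1.26). In cerebellar granule cells 3 were higher and 10 lower against layer V neurons (-2.09) and 3 and 12 against interneurons (-3.15). Stmn1, a tubulin-binding protein, was at 212, 258 and 256 CPM in dentate, 308, 311 and 297 in cerebellar, 1313, 1333 and 1263 in layer V and 400.3, 399.7 and 429 in interneuron libraries (-1.43, SE 0.046). Dcx, doublecortin of migrating neurons, was at 7.72, 5.70 and 6.58 CPM in dentate, 0.923, 1.47 and 1.56 in cerebellar, 9.02, 9.78 and 9.81 in layer V and 20.7, 24.9 and 21.7 in interneuron libraries (-2.31, SE 0.11). Sox4, a factor of young neurons, was at 18.4 CPM or less against 27.8 or more (-0.99, SE 0.047).

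Immediate early genes, which follow neuronal activity, were lower against layer V neurons alone. The contrast gave 5 higher and 16 lower of 24, with 2 higher members, 1 lower member and a median of -0.71. Against layer V neurons 4 were higher and 18 lower in dentate and 5 and 17 in cerebellar granule cells, whereas against interneurons 12 were higher and 6 lower and then 11 and 8. Jun, a subunit of AP-1, was a higher member at 447, 419 and 411 CPM in dentate, 291, 243 and 247 in cerebellar, 94.6, 95.1 and 82.6 in layer V and 49.4, 43.7 and 42.6 in interneuron libraries (2.38, SE 0.059). Btg2, an antiproliferative gene, was at 22.7 CPM or more against 7.80 or less (2.37, SE 0.059). Dusp6, a phosphatase of ERK kinases, was at 4.81, 5.23 and 6.34 CPM in dentate, 3.38, 4.16 and 5.05 in cerebellar, 78.3, 66.1 and 64.1 in layer V and 8.18, 14.1 and 14.6 in interneuron libraries, so that layer V neurons were far above the rest (-2.61, SE 0.15).

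Calcium-binding proteins had 3 higher and 13 lower of 17, with 5 lower members and a median of -1.91. The cerebellar type had 4 higher and 11 lower against interneurons and 3 and 13 against layer V neurons, and the dentate type 9 and 8, then 6 and 10. Necab1 was at 34.1, 42.2 and 54.7 CPM in dentate, 36.5, 43.5 and 40.0 in cerebellar, 198, 211 and 199.6 in layer V and 245, 255 and 243 in interneuron libraries, and the granule types overlapped (-2.42, SE 0.09). Calb1 (calbindin) and Calb2 (calretinin) divided the granule types instead: Calb1 was at 494 ± 32.2 CPM in dentate and 22.8 ± 1.19 in cerebellar libraries. Calb2 was at 6.41 ± 7.32 CPM in dentate and 1299 ± 11.7 in cerebellar libraries (SD, n = 3), and neither was a member. Glycolysis genes counted 7 higher and 14 lower of 24, with 7 lower members and a median of -0.21. Ldhb, a lactate dehydrogenase subunit, was at 189.6, 207 and 223 CPM in dentate, 304, 280.2 and 284 in cerebellar, 569, 568 and 558 in layer V and 817, 749.7 and 787 in interneuron libraries (-1.45, SE 0.04). Pfkfb3, which makes an activator of phosphofructokinase, was at 16.4 CPM or less against 27.4 or more (-2.11, SE 0.046).

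Members were defined by their side and not by their level, and the granule types often differed within a side. Dentate granule cells were above cerebellar granule cells, by at least 1 on the log2 scale at an adjusted p of 0.05 (edgeR quasi-likelihood, Benjamini-Hochberg), for 5329 of 18587 genes (28.7%) and below them for 2840 (15.3%). Of the higher members 56 were above (2.42%), 349 were below (15.1%) and 1909 met neither limit. Of the lower members 815 were above (33.5%), 74 were below (3.04%) and 1547 met neither. Where the granule types differed within a side, cerebellar libraries were mostly the ones further from the other neurons. The shares of higher members below and of lower members above were not far from those of all genes tested (15.3% and 28.7%). Neurod1 was lower in dentate than in cerebellar granule cells (log2 difference -4.41, SE 0.062, adjusted p = 1.57e-15; 3 of 3 dentate libraries below). Prox1 had the opposite sign (2.44, SE 0.11, adjusted p = 1.54e-10; 3 of 3 dentate libraries above). The largest difference among the lower members named was that of Pde2a (8.16, SE 0.11, adjusted p = 1.05e-15; 3 of 3 dentate libraries above). For Lhfpl2, Plk5, Tmem91 and Cacna1e the log2 difference between the granule types was -0.01, 0.03, -0.10 and 0.07, and none of these passed the edgeR test.

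Glial libraries of the same study, which the rule did not use, show which members are shared with astrocytes or microglia. Their levels were scaled over all 22 libraries. Slc4a4 was at 923, 916 and 1090.4 CPM in the astrocyte libraries of batch 1, and Trpm3 was at 202, 159 and 204 CPM. Nfia reached 209, 211 and 225 CPM in astrocytes. Il16 was at 218, 204 and 188 CPM in microglia and Lhfpl2 at 141, 156 and 145 CPM. St18 was at 2.02, 2.52 and 3.02 CPM in astrocytes and 0.785, 1.21 and 1.20 in microglia. Over all higher members tested, the astrocyte libraries all lay above the 6 other neuron libraries for 899 (38.9%, against 29.7% of all genes tested) and all below the 6 granule libraries for 1586 (68.5%, against 26.6%). Microglia libraries lay above the 6 other neuron libraries for 1225 higher members (52.9%, against 35.1%). Of the lower members, 1324 had astrocytes above the 6 granule libraries (54.4%, against 27.9%) and 1014 had microglia above them (41.6%, against 31.0%). Many lower members were also low in glia. Astrocytes lay below the 6 other neuron libraries for 1232 of them (50.6%, against 30.2%) and microglia for 1451 (59.6%, against 33.7%). The rule itself places the granule libraries at 1 end of the 12, which bears on these shares, and they are given as a description.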

How the data were processed

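Ribosome-bound polyA RNA was sequenced from 4 neuron types (3 libraries each). The authors' pipeline removed adapters (cutadapt 3.5), then assigned reads to GENCODE M24 transcripts (GRCm38) by pseudoalignment (kallisto 0.46.2). The authors deposited estimated counts (expected counts, not normalized) and TPM, normalized by transcript length, for each of 142552 transcripts. Depth per library is given in the report (38270477 to 66185898 estimated counts); floors cover counting error only. Counts were summed per gene, rounded and fitted with edgeR 4.0.16 (filterByExpr, TMM, quasi-likelihood F test) in R 4.3.3, with 4 types and no covariate, and p-values were adjusted by Benjamini-Hochberg over the 18587 genes tested. Alternatives used DESeq2 1.42.0, limma 3.58.1 on log2(TPM + 1), other filters and scalings, batch sets, a replicate block, single pairs of types and leaving out each library. Tables and figures were made with Python 3.11.15, pandas 2.3.3, numpy 2.4.6 and matplotlib 3.10.9, and the fit was tested on simulated data.

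Genes were named by a rule: the 15 protein-coding members per direction with the largest gap and at least 10 CPM in each high library; from each of 34 gene lists up to 4 per direction past the mean contrast, and up to 4 past the 4-way reading, with the largest difference, and the most abundant gene; and marker genes. Not every gene the rule gives is named. Others are said to be chosen after their values were seen. The members and lists were chosen with earlier results of these data known. Coordinates are of GENCODE M21, matched by identifier for 18563 of 18587 genes. The libraries of batch 2 made from replicates already used, and glial libraries, entered only the alternatives, the values within batch 2 and the glial levels.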

Additional observations from a re-analysis of the deposited data

Results flagged for a closer look

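Of the 108 genes whose difference from the other neurons the text gives, 60 also differed between the granule types, by at least 1 on the log2 scale at an adjusted p of 0.05 (edgeR quasi-likelihood, Benjamini-Hochberg over all genes tested), 41 higher and 19 lower in dentate granule cells. Over all 18587 genes tested, 5329 were higher (28.7%) and 2840 lower (15.3%) in dentate granule cells. Values are log2 differences of dentate from cerebellar granule cells, each from 3 libraries a type. Higher members that were lower in dentate granule cells began with Neurod1 (-4.41), Cdh15 (-4.35), Chd7 (-4.03), Kcnk10 (-3.02), Atp1b2 (-2.79) and Il16 (-2.38). The next were Plxnb2 (-2.02), St18 (-1.85), Kcnd2 (-1.84), Nfia (-1.84) and Nrg2 (-1.70). Smaller differences of this kind were those of Zfp282 (-1.65), Pcdhgb7 (-1.49), Atp2b3 (-1.43), Zfp882 (-1.31) and Kif26b (-1.30). After these came Hnrnph1 (-1.27) and Smarcd2 (-1.18). Higher members that were higher in dentate granule cells were Prox1 (2.44), Maml2 (1.24), Kcnj6 (1.09) and Slc8a2 (1.05). 

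Lower members were mostly nearer to the other neurons in dentate granule cells, first Pde2a (8.16), Gabrg3 (7.59), Rab3b (6.95), Cdh11 (6.92), Ephb6 (6.90) and Olfm2 (6.58). A further group was Rgs4 (6.47), Tmem132d (6.16), Chrna4 (6.00), Kcnc2 (5.77), Npy (5.30) and Grm8 (5.29). Between these and the smaller values stood Igfbp4 (5.15), Htr7 (5.14), Htr2a (5.12), Kcnh7 (4.83), Camk1g (4.78) and Sulf2 (4.62). Then came Cbln2 (4.59), Slc24a3 (4.56), Egln3 (4.29), Gabra3 (4.27), Chd5 (4.02) and Htr2c (3.98). Next in size were Serpine2 (3.42), Adra1b (3.23), Kcnq5 (2.71), Chrm3 (2.55), Tmem200c (2.46) and Dcx (2.36). Smaller values were those of Pfkfb3 (2.30), Nefh (1.82), Wls (1.80), Tmem196 (1.68), Scn4b (1.56) and Pcdhgc4 (1.38). Cox6a2 had a fitted value of 6.03, but its cerebellar libraries held no count, so the size of the difference was not measured. The lower member Tubb3 was lower in dentate than in cerebellar granule cells (-1.23).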

How the results depend on the processing

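None of the 108 genes whose difference the text gives reversed direction under the alternatives run, but the larger side of some counts changed. These genes lay on 1 side in all 12 libraries. Leaving out a library or taking a single pair of types could therefore hardly reverse them, and that part is no finding. Members were 2284 higher and 1794 lower by limma on log2(TPM + 1) and 2373 and 2340 by DESeq2. Without normalization factors members were 1897 higher and 2868 lower and the 4-way calls 1582 and 2350; the cause was not tested. The calls of the mean contrast lay between 12679 (at least 1 CPM in 3 libraries) and 15307 (cerebellar granule cells against layer V neurons alone). With the replicate number as a block they were 14578 (6347 higher, 8231 lower) and the 4-way calls 3850 (1945 and 1905). Genes that differed between the granule types were then 8123 (5284 higher and 2839 lower in dentate). Members do not depend on the fit, so a block leaves them at 4750 (2314 and 2436). Within batch 1, where layer V neurons are the only other type and a gene must pass 2 pairs in place of 4, the calls shared by all pairs were 7487 (3633 higher, 3854 lower) and members were 8359 (3966 and 4393). Within batch 2 alone, with 1 library of each granule type and of layer V neurons and 3 of interneurons, 4-way calls were 2323 (1158 and 1165), and the cause was not tested. Taking a single pair of types, genes on 1 side numbered 13559 (6614 and 6945) for dentate and 15786 (7141 and 8645) for cerebellar granule cells against layer V neurons, and 13359 (6432 and 6927) and 15464 (6889 and 8575) against interneurons; 4-way calls need all pairs and have no value there. By limma on log2(TPM + 1) 4866 genes differed between the granule types (3007 higher, 1859 lower in dentate); the cause was not tested. The correlation of the granule types was 0.861 on TPM and 0.802 over genes with at least 1 CPM in 3 libraries, which leaves out genes low in every type.

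Leaving out each library in turn, the mean contrast called 14437 to 14783 genes (6254 to 6547 higher, 7994 to 8430 lower) and the 4-way reading 3629 to 3932 (1841 to 2091 and 1650 to 1973). Members numbered 4858 to 5244 (2343 to 2586 and 2349 to 2746), genes differing between granule types 8127 to 8358 (5175 to 5482 and 2761 to 2952), and the correlation 0.865 to 0.867. The rule for members is easier to meet over fewer libraries, so a larger number of members is no finding. Of the 2314 higher and 2436 lower members, 1869 and 2405 were still on their side without normalization factors, and 1908 and 1698 on log2(TPM + 1). Of 1620 values of single genes 1 lost its call (Rps15a on TPM), but these genes were chosen on the same values. Counting higher and lower calls together, 15 of 510 list counts moved by more than 1.5 times, most of them marker lists within a batch or a single pair. The larger side of a list could turn while this count stayed. Glutamate receptors had 6 higher and 34 lower by the contrast. In dentate granule cells they had 20 and 17 against layer V neurons. In the batch 2 libraries 4507 members kept their side, against 3907 to 4628 under other scalings and filters. At a depth of 38270477 counts or more, 631 of the genes tested had no count in all 3 libraries of a type. This was so for 551 genes in cerebellar, 58 in dentate, 47 in layer V and 50 in interneuron libraries. For these genes only a bound can be given.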

Other observations

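Most of the other gene families examined, grouped by name after their values were seen, also lay mostly on 1 side. Zinc finger genes named Zfp and a number counted 248 higher and 53 lower of 345 tested by the mean contrast, with 122 higher and 8 lower members and a median log2 difference of 0.50, against -0.14 for all genes. Zfp882 was at 10.9, 10.4 and 9.42 CPM in dentate, 23.6, 26.2 and 26.5 in cerebellar, 1.78, 2.00 and 1.56 in layer V and 3.34, 4.72 and 4.798 in interneuron libraries (2.54, SE 0.094). Zfp282 was at 28.1 CPM or more in granule and 18.3 or less in other libraries (1.64, SE 0.038). Genes of hnRNP proteins, which bind nascent RNA, had 19 of 20 higher and 12 higher members, with a median of 0.59. Hnrnpa3 was at 592, 603 and 596 CPM in dentate, 1044, 1069 and 1119.7 in cerebellar, 399, 406 and 404 in layer V and 410.1, 412 and 410.4 in interneuron libraries (0.98, SE 0.024), and Hnrnph1 was at 222 CPM or more against 157 or less (1.20, SE 0.03). Rbfox1, a splicing factor of neurons, was at 934, 895 and 865 CPM in dentate, 707, 689 and 723 in cerebellar, 391, 379 and 382 in layer V and 236, 239 and 238 in interneuron libraries (1.40, SE 0.026). RNA-binding motif genes had 21 higher and 7 lower of 33 (median 0.40), deubiquitinases named Usp 33 higher and 7 lower of 46 (median 0.44), and all 4 nuclear factor I genes were higher, 3 of them members. Mitochondrial ribosomal proteins had 9 higher and 57 lower of 78 (median -0.26). Proteasome subunits were closer to all genes, with 10 higher and 21 lower of 38 (median -0.09).

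Clustered protocadherins, adhesion proteins by which neurons recognize their own branches, differed by cluster. Gamma protocadherins had 20 higher and 2 lower of 22 (median 0.98), beta protocadherins 16 higher and 3 lower of 21 (median 0.56) and alpha protocadherins 2 higher and 10 lower of 14 (median -0.45). Higher and lower members numbered 14 and 1 for gamma, 3 and 0 for beta and 0 and 2 for alpha protocadherins. Of all genes tested 12.4% were higher and 13.1% lower members. Gamma genes share their constant exons, as alpha genes share theirs, so the members of a cluster are not independent. Pcdhga11 was at 70.2, 62.9 and 61.9 CPM in dentate, 88.1, 99.3 and 98.7 in cerebellar, 23.9, 20.7 and 18.6 in layer V and 21.7, 20.9 and 18.6 in interneuron libraries (1.93, SE 0.064). Pcdhgb7 was at 14.6 CPM or more against 6.45 or less (2.28, SE 0.057), while Pcdhgc4 was a lower member at 96.0, 110.4 and 103 CPM in dentate, 44.4, 48.5 and 25.9 in cerebellar, 202, 202 and 185 in layer V and 212, 203 and 208 in interneuron libraries (-1.66, SE 0.11).

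Receptors of ascending modulatory systems were mostly lower in granule cells by the mean contrast (44.4% of all genes tested were lower), and dentate granule cells were above cerebellar granule cells for all 12 serotonin, 10 of 16 acetylcholine and 6 of 9 adrenergic receptors. All 12 serotonin receptor genes tested were lower, 7 of them members, with a median of -3.90. Htr2c was at 10.9, 12.2 and 14.6 CPM in dentate, 1.07, 0.557 and 0.689 in cerebellar, 26.0, 25.5 and 26.7 in layer V and 54.7, 68.2 and 52.4 in interneuron libraries (-3.62, SE 0.12). Htr7 was at 3.79 CPM or less in granule and 6.71 or more in other libraries (-4.95, SE 0.17). Acetylcholine receptors had 1 higher and 14 lower of 16 (6 lower members, median -2.76), and adrenergic receptors 1 higher and 7 lower of 9 (3 lower members, median -3.08). Chrm3, a muscarinic receptor, was at 8.23, 9.15 and 14.7 CPM in dentate, 1.90, 1.60 and 1.99 in cerebellar, 57.5, 57.1 and 50.9 in layer V and 47.8, 43.7 and 41.6 in interneuron libraries (-3.48, SE 0.13). Chrna4, a nicotinic receptor subunit, was at 26.6 CPM or less against 42.2 or more (-4.10, SE 0.1).

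The layer V library of replicate 1 in batch 2 is labelled male, but its Xist level was 2.13 TPM and its Ddx3y level 0.034 TPM, near those of the batch 1 library of the same replicate, labelled female (2.45 and 0.086 TPM). It enters the values given for batch 2, the alternatives that use batch 2 libraries, and the scaling behind the glial levels.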
